A study of Mus musculus with 145 samples.

Results

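TGF-beta, activin and BMP receptors and their SMAD proteins were examined as insertion targets in a transposon screen of mouse mammary tumours. The 10 genes were chosen by name from the pathway, with earlier results of these data known. Their Entrez identifiers were looked up in the authors' table of 13391 gene regions, where all 10 were found. They are the type I receptors Tgfbr1, Acvr1b and Bmpr1a, the type II receptors Tgfbr2, Acvr2a and Bmpr2, the signalling SMADs Smad2, Smad3 and Smad4, and the inhibitory Smad7. A gene was called hit in a tumour where its region, from start to end, held 1 or more sites with at least 10 reads in that tumour's library. A position and strand seen in several libraries was assigned to the library in which it had the most reads. Of 101066 such sites in all tumours, 74 lay in the 10 genes, whose regions add up to 777 kb.

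The resistant group was 51 tumours that grew while their mice received BYL719 (alpelisib), an inhibitor of PI3K alpha, at 30 mg/kg daily from a tumour volume of 250 mm3. Growth over 3 consecutive measurements within 3 weeks defined resistance. The untreated group was 94 libraries of tumours from untreated mice, counted here as 94 tumours. The titles of untreated tumours 58 and 88 name the same mouse and gland, the second with a suffix R2, so that there may be 93 distinct tumours. Neither library was hit in any of the 10 genes. The titles named 25 mice with resistant and 23 with untreated tumours, 48 in all, whereas the protocol text states 53. No age was given. Every mouse of both groups carried 4 alleles: WAP-Cre, LSL-PB, LSL-PIK3CA(H1047R) and the transposon donor ATP1. The WAP promoter turns on in mammary epithelium late in pregnancy, and the Cre it drives switched on both the piggyBac transposase and PIK3CA H1047R, a PI3K alpha catalytic subunit with an activating mutation. The controls carry the mobile transposon as well, so both groups contain insertions. DNA alone was sequenced, so the expression of a hit gene and the cell type of each tumour could not be checked, and reads from tumour cells and from other cells of the gland cannot be told apart.

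In this pathway a dimeric ligand joins type II and type I receptors, the type II kinase activates the type I kinase, and the type I kinase phosphorylates receptor SMADs. TGF-beta (through Tgfbr2 and Tgfbr1) and activin (through Acvr2a and Acvr1b) mainly activate Smad2 and Smad3, whereas BMPs (through Bmpr2 and Bmpr1a) mainly activate Smad1 and its relatives. Smad4 is the partner shared by all of them, and Smad7 shuts the receptors down. In mammary epithelium TGF-beta is known both for growth arrest and, in advanced tumours, for promoting invasion. The ATP1 transposon inserts at TTAA, carries a promoter with a splice donor and also splice acceptors with stop signals, and can therefore activate a gene downstream of it or truncate the gene in which it lies.

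The insertion targets of the activin receptors and of Tgfbr2 are shown first, because they hold 3 of the 4 sites with the most reads and the densest groups of sites. Each line gives the target in capitals and the 4 bases that follow it, read 5′ to 3′ along the strand of the insertion, as the deposited site table lists them, with mm10 coordinates.
Acvr1b, resistant tumour 11, chr15:101179182-101179189, plus strand: TTAAtaca
Acvr1b, resistant tumour 2, chr15:101182555-101182562, plus strand: TTAAtgaa
Acvr1b, untreated tumour 21, chr15:101191712-101191719, minus strand: TTAAgcag
Acvr1b, untreated tumour 22, chr15:101187265-101187272, minus strand: TTAAaaca
Acvr2a, resistant tumour 11, chr2:48852549-48852556, minus strand: TTAAggga
Acvr2a, resistant tumour 5, chr2:48816188-48816195, minus strand: TTAAgcat
Acvr2a, resistant tumour 35, chr2:48817902-48817909, minus strand: TTAAcagc
Acvr2a, resistant tumour 44, chr2:48818243-48818250, minus strand: TTAAagct
Acvr2a, untreated tumour 86, chr2:48816192-48816199, plus strand: TTAAggca
Acvr2a, untreated tumour 21, chr2:48817874-48817881, plus strand: TTAAaggt
Tgfbr2, resistant tumour 32, chr9:116107924-116107931, minus strand: TTAAatgt
Tgfbr2, untreated tumour 92, chr9:116105490-116105497, minus strand: TTAAgtgg
Tgfbr2, untreated tumour 13, chr9:116108520-116108527, minus strand: TTAAtaga
Tgfbr2, untreated tumour 57, chr9:116108868-116108875, minus strand: TTAAattc

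The same target can be entered in either orientation: resistant tumour 5 and untreated tumour 86 share 1 TTAA of Acvr2a, with the transposon on the minus strand in resistant tumour 5 and on the plus strand in untreated tumour 86. In the 10 genes 73 of 74 sites (98.6%) lay at TTAA, against 96.3% of all sites. The exception was the Tgfbr2 site of resistant tumour 8.

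TTAA targets in the windows around the gene starts were few. RefSeq (GRCm38.p6) lists a promoter window of 300 bases, from 250 before to 50 after the start, for 7 of the 10 genes. TTAA, which reads the same on both strands, occurs in 52.4% of 32851 such windows. The Acvr1b window holds 2 of them, the Bmpr2 window and a second start of Tgfbr1 hold 1 each, and the other windows hold none, among them that of Acvr2a, whose insertions begin 2.08 kb after the start. Both are printed to show this contrast, with TTAA in capitals.
Acvr1b, chr15:101173822-101174121, plus strand: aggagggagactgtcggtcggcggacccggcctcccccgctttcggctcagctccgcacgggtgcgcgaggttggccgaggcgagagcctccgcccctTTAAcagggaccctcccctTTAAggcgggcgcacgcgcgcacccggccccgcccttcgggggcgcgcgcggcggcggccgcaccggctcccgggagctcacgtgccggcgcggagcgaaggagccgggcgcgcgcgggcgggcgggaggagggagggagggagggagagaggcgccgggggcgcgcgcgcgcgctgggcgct
Acvr2a, chr2:48813859-48814158, plus strand: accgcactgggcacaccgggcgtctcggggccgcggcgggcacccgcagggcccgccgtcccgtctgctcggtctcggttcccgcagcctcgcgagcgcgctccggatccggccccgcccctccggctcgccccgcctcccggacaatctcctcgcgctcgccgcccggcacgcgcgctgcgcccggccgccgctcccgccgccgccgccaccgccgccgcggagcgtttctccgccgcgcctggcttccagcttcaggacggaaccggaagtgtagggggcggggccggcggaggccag
None of the listed sites of the 7 genes lay inside these windows. Such sites were rare for other genes too: 946 listed sites at TTAA lay inside a window, with 32851 windows in all. The first 25% of the length of the 10 genes held 30.6% of their sites, against 27.8% over all genes.

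Depth differed between the groups and bears on every count. Libraries held 51 to 1604365 reads in resistant tumours (median 136932) and 2950 to 938987 in untreated tumours (median 48339). Resistant tumours had 0 to 3320 sites of at least 10 reads (median 473) and untreated tumours 0 to 3017 (median 431). The donor chromosome, 10, held 20.9% of these sites, and none of the 10 genes lies on it. Untreated tumours 77 and 79, labelled as different mice, had 586 positions of at least 10 reads in common, of 733 and 588. Neither was hit in any of the 10 genes. Titles had the forms Tgtumor and Mouse in resistant tumours and TgTum and tgTum in untreated tumours, so form and group cannot be told apart. Because tumours of 1 mouse are not independent, for the 6 genes tested the Fisher test of the share is given with a permutation of the labels over mice.

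Each of the 10 genes was hit in 1 or more tumours, and 6 of them in at least 5 tumours, against 19.1% of all gene regions. The choice of the 10 with earlier results known limits what this comparison shows. It also takes no account of length: the regions of the 6 span 72 to 116 kb, and the 19.1% covers regions of any length. At least 1 of the 10 was hit in 16 of the 51 resistant tumours (31.4%, with a 95% Clopper-Pearson interval of 19.1 to 45.9), against 29 of the 94 untreated tumours (30.9%, 21.7 to 41.2). No tested gene of the 10 differed between the groups past the threshold. The 6 hit in at least 5 tumours were tested, and 0 of these 6 passed the Fisher exact test (two-sided, p-values adjusted by Benjamini and Hochberg's method). Over all 2558 genes tested, 0.0% passed as well, and 3.01% had an unadjusted p under 0.05, against 0 of the 6. Smad2 had only 7 tumours hit, and Smad3, Bmpr1a and Bmpr2 only 9 each. Over 2558 genes these could not pass the Fisher test however their hits were split between the groups. With labels permuted over mice, 0 of the 6 passed and 0.156% of the 2558 genes did, while 5.79% had an unadjusted p under 0.05, again against 0 of the 6. The share was higher in resistant tumours for 5 of the 6 tested genes, against 53.1% of all genes tested, and for 6 of the 10, against 46.3% of 11111 genes hit in any tumour. The median difference was 4.48 percentage points over the 6 and 0.563 over all 2558 genes. These directions changed with the rule for a hit. With only the 300 sites of most reads in each tumour, Tgfbr2 was hit in 1 resistant and 4 untreated tumours, Smad3 in 1 resistant and 3 untreated, and Acvr2a and Smad2 each in 1 resistant and 2 untreated. With mice as the unit, Tgfbr2, Smad3, Bmpr1a and Acvr2a had the lower share among mice with resistant tumours. A mouse counted as hit if any of its tumours was, and untreated mice gave more tumours each. With the mean share per mouse, the differences for Tgfbr2, Smad3, Bmpr1a and Acvr2a were 3.24, 3.92, 1.74 and 3.88 percentage points, higher in resistant tumours.

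**Figure D1:**
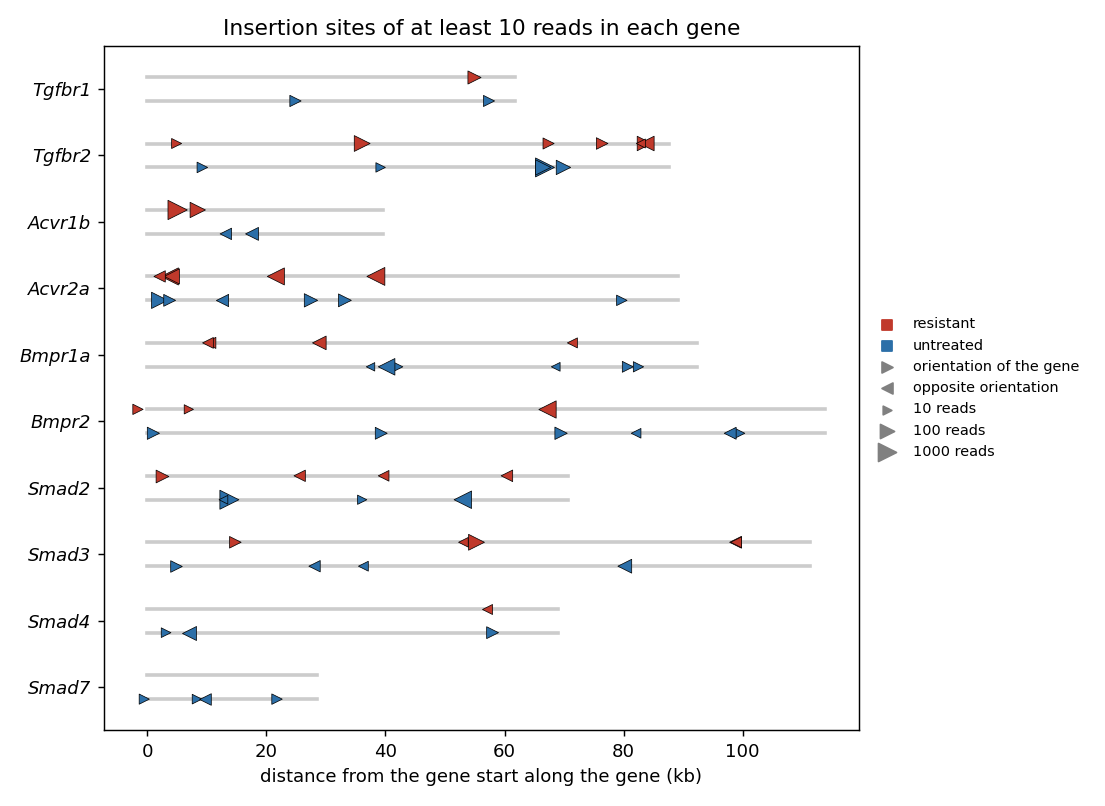
Insertion sites of at least 10 reads by distance from the RefSeq gene start in kb, 1 gene per row, with resistant tumours on the upper line and untreated tumours on the lower line. Triangles point right where the transposon has the orientation of the gene and left where it is opposite, and their size grows with the log of the reads. In Acvr2a the 5 resistant sites all point left and 5 of 6 untreated sites point right.

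**Figure D2:**
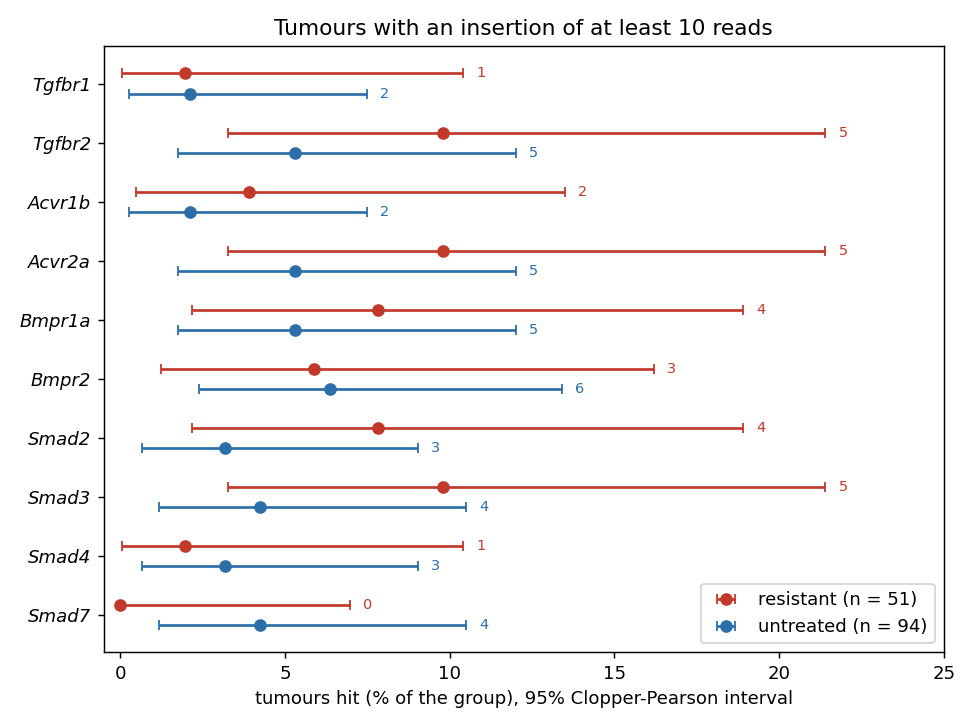
Percent of tumours hit in each gene, with 95% Clopper-Pearson intervals and the number of tumours hit beside each interval, for 51 resistant and 94 untreated tumours. The intervals of the groups overlap in every gene, and Smad7 has 0 resistant tumours hit.

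Tgfbr2, the type II receptor that binds TGF-beta, was 1 of the 2 genes hit in most tumours. It was hit in 5 resistant tumours (9.8%, 3.26 to 21.4) from 4 mice and in 5 untreated tumours (5.32%, 1.75 to 12) from 5 mice. The groups did not differ detectably (Fisher exact p = 0.322, adjusted p = 1.0, permutation over mice p = 0.304). The region spans chr9:116087695-116177363 on the minus strand (identifier 21813). Its resistant sites had 279 reads in tumour 26, 138 in tumour 2, 130, 26 and 12 at 3 positions in tumour 32, 32 in tumour 8 and 17 in tumour 10. Its untreated sites had 2114 reads in tumour 13, 197 in tumour 57, 126 in tumour 92, 21 in tumour 43 and 14 in tumour 12. In reads the ranges overlap, and the site of untreated tumour 13 is the only one of the 12 above 279 reads. It ranked 10 among the 991 sites of its tumour and took 0.934% of its reads. As a percent of the library's reads, the resistant sites ran from 0.00928% to 0.101% and the untreated sites from 0.0123% to 0.934%. The untreated sites of tumours 57, 12 and 92 (0.454%, 0.161% and 0.134%) also lay above every resistant site. That of tumour 43 lay inside the resistant range, and the library of tumour 12 held only 8713 reads.

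Tgfbr2 insertions lay mostly in the last 25% of the gene's length. That stretch held 8 of 12 sites, 5 of the 7 resistant and 3 of the 5 untreated ones, against 22.9% of the sites of all genes. Of those 5 resistant sites, 3 came from tumour 32 (95.2%, 94.6% and 76.9% along the gene) and are not independent. Within the stretch, 4 sites of 4 tumours fell in 3378 bp, 66.5 to 69.9 kb from the start, 1 resistant and 3 untreated. Their targets are the Tgfbr2 sequences printed above. The transposon had the orientation of the gene in 5 of 7 resistant sites and 5 of 5 untreated sites. Against equal orientation the exact binomial p was 0.453 and 0.0625 (adjusted p = 1.0 for both). With 5 sites 0.0625 is the lowest p this test can give, so the untreated sites could not reach 0.05. Sites this few cannot decide whether the orientation was equal. Over all genes and groups with at least 5 sites, 0.0% of 2395 such tests passed the adjusted threshold, and the unadjusted p was under 0.05 in 2.88%. These tests count several sites of 1 tumour separately. Counting 1 site per tumour, 4 of 5 resistant and 5 of 5 untreated Tgfbr2 sites had the orientation of the gene.

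Tgfbr1, the type I partner of Tgfbr2, was hit the least often for its length of the 10 genes. It was hit in resistant tumour 5 (65 reads) and in untreated tumours 22 and 23 (26 and 28 reads), which come from 1 mouse. That is 1.96% of resistant and 2.13% of untreated tumours. All 3 insertions had the orientation of the gene, and with fewer than 5 tumours hit the gene entered no adjusted test (Fisher exact p = 1.0). Its region is chr4:47351305-47414924, plus strand (identifier 21812).

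Acvr2a, a type II receptor for activins, was hit in 5 resistant tumours (9.8%, 3.26 to 21.4), against 5 untreated tumours (5.32%, 1.75 to 12), each from another mouse within its group. The difference of 4.48 percentage points did not pass (Fisher exact p = 0.322, adjusted p = 1.0, permutation over mice p = 0.284). Its region is chr2:48812109-48903264, plus strand (identifier 11480). Resistant sites had 1047 reads in tumour 11, 610 in tumour 35, 582 in tumour 26, 195 in tumour 44 and 29 in tumour 5. Untreated sites had 354 reads in tumour 86, 72 in tumour 80, 57 and 43 at 2 positions in tumour 4, 36 in tumour 21 and 20 in tumour 42. Above 100 reads lay 4 of 5 resistant sites and 1 of 6 untreated sites, and the groups overlap. Counting only such sites, 4 resistant tumours and 1 untreated tumour were hit (Fisher exact p = 0.0519, adjusted p = 0.906). As a percent of the reads of the library, the resistant sites ran from 0.0267% to 0.765% and the untreated sites from 0.0196% to 0.153%, so that all resistant sites but that of tumour 11 lie within the untreated range.

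In Acvr2a the transposon lay against the gene in all 5 resistant sites and along the gene in 5 of 6 untreated sites. This difference in orientation had a Fisher exact p of 0.0152 and an adjusted p of 1.0 over 709 genes with at least 5 sites in each group. Of those 709 genes 0.0% passed the adjusted threshold, and the unadjusted p was under 0.05 in 3.24%. With 5 and 6 sites, no split of orientation could have passed the adjusted threshold. Within a group, the exact binomial p was 0.0625 for 0 of 5 resistant sites, the lowest that 5 sites can give, and 0.219 for 5 of 6 untreated sites. Counting only the site with the most reads in each tumour, all 5 resistant sites were opposite and all 5 untreated sites along the gene (Fisher exact p = 0.00794, adjusted p = 1.0). That choice drops the only opposite untreated site, with 43 reads in tumour 4, for the 57-read site of the same tumour. With sites of at least 5 reads the counts along the gene were 1 of 6 resistant and 5 of 7 untreated sites (p = 0.103). The first 25% of the gene's length held 7 of 11 sites (63.6%, against 27.8% over all genes). A group of 5, with 3 resistant and 2 untreated sites, fell in 2055 bp between 2.08 and 4.14 kb from the start, and among these 5 the resistant ones were all opposite and the untreated ones all along the gene.

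Acvr1b, the type I partner of Acvr2a, held the site with the most reads of all 10 genes. That site had 2713 reads in resistant tumour 11, 1.98% of the library, and ranked 3 among 2641 sites. It lay 5.11 kb from the start in the orientation of the gene. The other resistant site, in tumour 2, had 210 reads, was 8.49 kb from the start and had the same orientation. The untreated sites had 59 reads in tumour 21 and 30 in tumour 22, tumours of 1 mouse, and both were opposite to the gene. Reads of the groups do not overlap here, but they come from 2 tumours each. The libraries of resistant tumours 11 and 2 held 136932 and 278252 reads, and those of untreated tumours 21 and 22 held 183939 and 281861. Acvr1b hits were found in 3.92% of resistant tumours, against 2.13% of untreated tumours (Fisher exact p = 0.613), too few for the adjusted test. The gene lies at chr15:101172125-101212601 on the plus strand (identifier 11479).

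Resistant tumour 11 thus carried the most abundant Acvr1b and the most abundant Acvr2a insertion, the subunits of 1 activin receptor. The Acvr2a site ranked 8 in that tumour. The deposited table has a further whole number per site and library, which its header does not define and which never exceeds the read count. It was 116 at the Acvr1b site and 54 at the Acvr2a site. It was 15 at the Tgfbr2 site of untreated tumour 13 and at most 6 at the other 71 sites. A value of 10 or more was found at 4.05% of the sites of the 10 genes (3 of 74) and at 1.34% of all sites. A value of 1 was found at 81.1% of the sites of the 10 genes and at 85.7% of all sites. The same tumour was also hit in Bmpr1a (26 reads) and Smad2 (29 reads), at ranks 1462 and 1210. Whether the activin receptor insertions lie in the same cells cannot be told from pooled DNA.

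**Figure D3:**
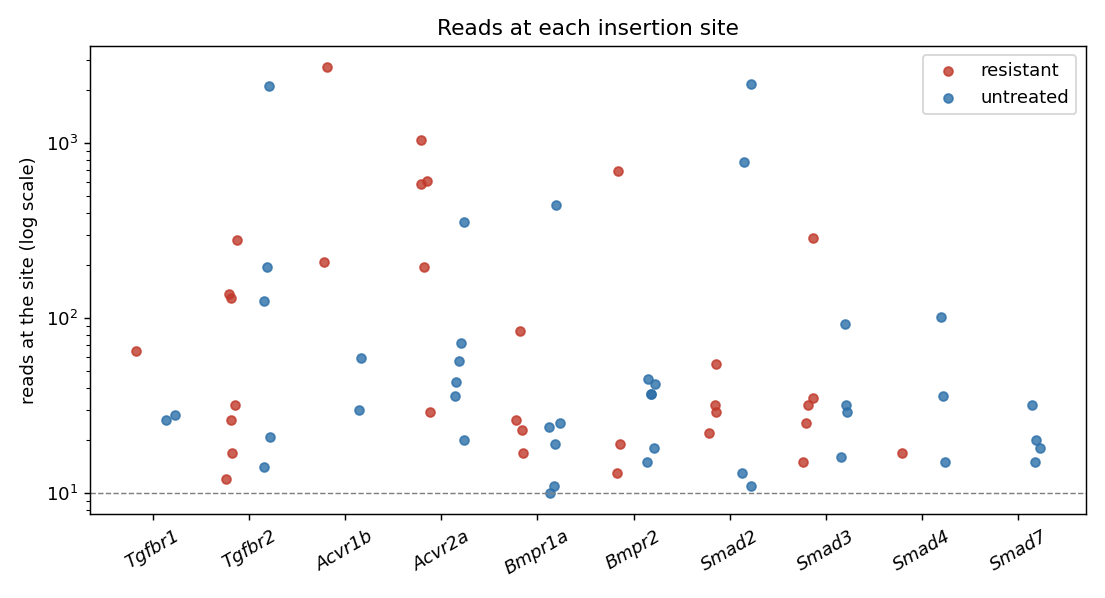
Reads at each of the 74 sites on a log scale, by gene, with resistant tumours left of untreated tumours. The dashed line marks the minimum of 10 reads. Acvr1b (2713 reads, resistant), Smad2 (2180, untreated), Tgfbr2 (2114, untreated) and Acvr2a (1047, resistant) hold the 4 sites with the most reads.

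Bmpr1a, a type I BMP receptor, was hit in 4 resistant tumours (7.84%, 2.18 to 18.9), against 5 untreated tumours (5.32%, 1.75 to 12), which did not differ detectably (Fisher exact p = 0.72, adjusted p = 1.0, permutation over mice p = 0.577). Resistant sites had 84, 26, 23 and 17 reads in tumours 4, 11, 10 and 12, and all 4 were opposite to the gene. Untreated sites had 441 reads in tumour 78, 25 in tumour 31, 24 in tumour 22, 19 in tumour 10, and 11 and 10 in tumour 30, with 3 of 6 opposite. The site of tumour 78 had the most reads of its library (rank 1 of 335, 1.54% of reads), and the other untreated sites, at 10 to 25 reads, overlap the resistant range of 17 to 84 reads. Its region is chr14:34411068-34504546, minus strand (identifier 12166).

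Bmpr2, the type II BMP receptor, was hit in 3 resistant tumours (5.88%, 1.23 to 16.2), against 6 untreated tumours (6.38%, 2.38 to 13.4), with a Fisher exact p of 1.0 (adjusted p = 1.0, permutation over mice p = 0.915). Resistant sites had 691 reads in tumour 40, 19 in tumour 18 and 13 in tumour 32, whereas the untreated sites had 15 to 45 reads. In reads the first was far above the untreated range, the second lay inside it and the third just below it. As a percent of the library's reads, the resistant sites took 0.2%, 0.0434% and 0.0101%, against 0.00759% to 0.117% at the untreated sites. By that measure only the first lay outside the untreated range. The site of tumour 18 lay 1.55 kb before the RefSeq start, inside the extended region. The transposon had the orientation of the gene in 2 of 3 resistant and 4 of 6 untreated sites. The region is chr1:59762279-59878081, plus strand (identifier 12168).

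Smad2, a receptor SMAD of the TGF-beta and activin arm, was hit in 4 resistant tumours (7.84%, 2.18 to 18.9), against 3 untreated tumours (3.19%, 0.663 to 9.04). The difference did not pass (Fisher exact p = 0.242, adjusted p = 1.0, permutation over mice p = 0.178). Resistant sites had 55, 32, 29 and 22 reads in tumours 5, 18, 11 and 32. Untreated sites had 2180 reads in tumour 14, 777 in tumour 56, and 13 and 11 at 2 positions in tumour 43. The resistant sites all lie between the higher and the lower untreated pair. The site of untreated tumour 14 took 18% of a library of 12086 reads with only 9 sites, and ranked 3 there. With the 100 sites of most reads per tumour, 0 resistant tumours and 2 untreated tumours had a Smad2 site.

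Smad3, the other receptor SMAD of that arm, was hit in 5 resistant tumours (9.8%, 3.26 to 21.4), against 4 untreated tumours (4.26%, 1.17 to 10.5), a difference of 5.55 percentage points that did not pass (Fisher exact p = 0.279, adjusted p = 1.0, permutation over mice p = 0.185). Resistant sites had 286, 35, 32, 25 and 15 reads in tumours 38, 8, 32, 37 and 10. Untreated sites had 92, 32, 29 and 16 reads in tumours 48, 69, 28 and 43. In reads the groups overlap, with the site of tumour 38 above the untreated range and that of tumour 10 just below it. As a percent of the library's reads, the resistant sites ran from 0.00969% to 0.0914%, all inside the untreated range of 0.00936% to 0.199%. The transposon was opposite to the gene in 3 of 5 resistant and 3 of 4 untreated sites, and 2 resistant sites of different mice lay 59 bp apart near the end of the gene. The region is chr9:63646767-63759994, minus strand (identifier 17127).

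Smad4, the common partner, and Smad7, the inhibitor, were hit in 4 tumours each and not tested. Smad4 was hit in 1 resistant tumour (1.96%, 17 reads in tumour 23), against 3 untreated tumours (3.19%, 102, 36 and 15 reads in tumours 31, 21 and 38; Fisher exact p = 1.0). Smad7 was hit in 0 of 51 resistant tumours, which allows a share of up to 6.98% (upper 95% Clopper-Pearson bound), and in 4 untreated tumours of 4 mice (4.26%, 1.17 to 10.5; Fisher exact p = 0.298). Its untreated sites had 32, 20, 18 and 15 reads in tumours 36, 72, 28 and 4, all near the minimum of 10. With mice as the unit, Smad7 hits came from 0 of 25 mice with resistant tumours and 4 of 23 with untreated tumours (Fisher exact p = 0.0455, unadjusted). A p under 0.05 was common with this unit, at 11.8% of the 2558 genes hit in at least 5 tumours. Untreated mice gave more tumours each. Smad2, Smad4 and Smad7 lie on chromosome 18, at 76239701 to 76311747 (identifier 17126), 73639013 to 73705741 (17128) and 75365365 to 75395934 (17131).

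Over both groups together, all 10 genes were hit in more tumours than their length alone gives. With the sites of each tumour outside chromosome 10 spread evenly over the other chromosomes, 9.04 hits of a tumour and a gene were expected in resistant tumours, where 30 were found, and 14.4 in untreated tumours, where 39 were found. The ratio was 3.32 in resistant tumours, against 1.32 over all gene regions outside chromosome 10 and a median of 1.57 over those hit in at least 5 tumours. In untreated tumours it was 2.71, against 1.34 and a median of 1.65 for the same sets of regions. Gene by gene the ratio over both groups ran from 1.55 for Tgfbr1 to 4.28 for Smad7, with 3.7 for Tgfbr2, 3.64 for Acvr2a and 3.24 for Acvr1b. Length is the only property in this expectation, and the 10 genes were chosen with earlier results of these data known. The excess is therefore a description and no independent support. In the authors' deposited table, the signed −log10 p-value score for common integration exceeded 2 in resistant tumours for Tgfbr2 (2.45), Smad3 (2.27) and Bmpr1a (2.12), and did so for 3.7% of all gene regions. In untreated tumours the authors' deposited table gave Acvr1b 2.28 and Smad7 2.13, and 4.47% of gene regions exceeded 2.

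Counts in the authors' deposited table follow rules of its own, and for Tgfbr2 and Bmpr2 the direction is the other way. The authors' deposited table gives Tgfbr2 in 11.76% of resistant tumours and 18.09% of untreated tumours, with 5 untreated insertions spread over 17 tumours. A single one of these positions had reads in 10 untreated libraries, 2114 in tumour 13 and 1 or 2 in each of the others. Counting each position in a single tumour and from 10 reads, as here, gives 9.8% of resistant and 5.32% of untreated tumours. Other shared positions were closer: 1 of Tgfbr2 had 14 reads in untreated tumour 12, where it was counted, and 13 in resistant tumour 23. Another had 197 reads in untreated tumour 57 and 42 in untreated tumour 21. A Bmpr1a position had 84 reads in resistant tumour 4 and 46 in untreated tumour 6. An Acvr2a position near the gene start, whose target is printed above, had 29 reads in resistant tumour 5 and 22 in resistant tumour 32. With shared positions kept in every tumour, Tgfbr2 was hit in 6 resistant and 6 untreated tumours, Bmpr1a in 4 and 6, and Acvr2a in 6 and 5. The authors' deposited table gives Bmpr2 in 9.8% of resistant tumours and 9.57% of untreated tumours (here 5.88% of resistant and 6.38% of untreated tumours), and Acvr1b in 11.76% of resistant tumours and 5.32% of untreated tumours. The authors' deposited table also gives Bmpr1a in 21.57% of resistant tumours and 11.7% of untreated tumours, and Acvr2a in 19.61% of resistant tumours and 8.51% of untreated tumours.

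Tumours hit in several of the 10 genes were mostly those with many sites. At least 2 genes were hit in 8 resistant and 6 untreated tumours. The highest number was 4, in resistant tumour 11 (2641 sites) and in resistant tumour 32 (2793 sites), which was hit in Tgfbr2, Smad2, Smad3 and Bmpr2. The highest in untreated tumours was 3, in tumours 4, 21, 22 and 43. Tumours with any of the genes hit had a median of 755 sites, against 377.5 in tumours with none. Among the 48 tumours with the fewest sites, 0 of 15 resistant and 7 of 33 untreated tumours were hit. Among the middle 48 it was 7 of 19 resistant and 5 of 29 untreated, and among the 49 with the most sites 9 of 17 resistant and 17 of 32 untreated. Tgfbr2 and Smad3 were the pair hit together most often, in resistant tumours 8, 10 and 32 and untreated tumour 43. Resistant tumours 8 and 10 come from 1 mouse, and these 4 tumours had 1405 to 3320 sites each.

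**Figure D4:**
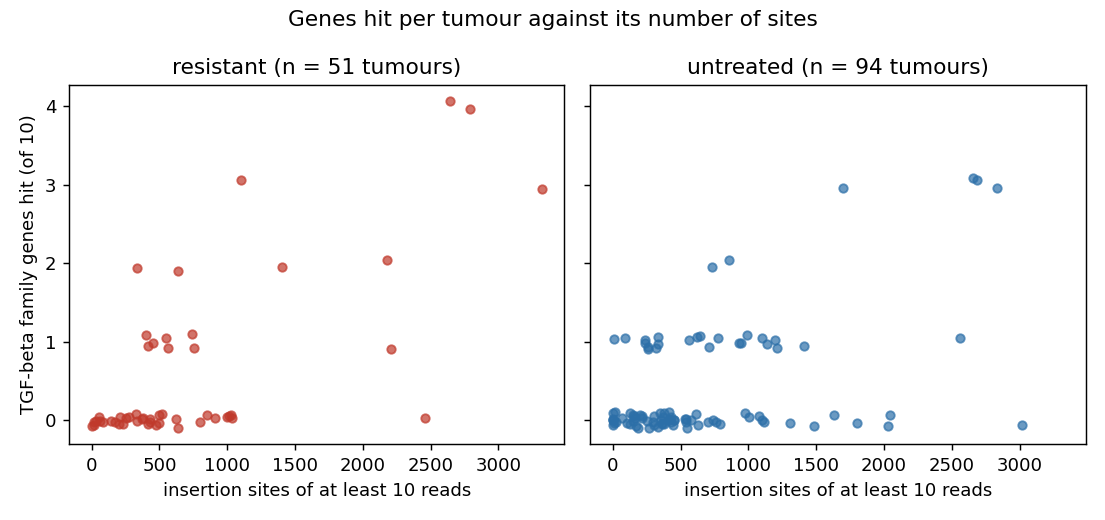
Number of the 10 genes hit in each tumour against its number of sites of at least 10 reads, for resistant tumours on the left and untreated tumours on the right, with points shifted slightly up or down for visibility. Every tumour with at least 3 genes hit has at least 1102 sites.

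Within the title forms the share of tumours with any of the 10 genes hit was 34.3% of 35 Tgtumor and 25% of 16 Mouse tumours in the resistant group, and 36.1% of 61 TgTum and 21.2% of 33 tgTum tumours in the untreated group. Forms with more sites per tumour (medians 637 in Tgtumor and 729 in TgTum) had higher shares than those with fewer (242 in Mouse and 258 in tgTum). All 5 resistant tumours hit in Tgfbr2, all 4 hit in Smad2 and all 4 hit in Bmpr1a were of the Tgtumor form.

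A further 48 genes of the pathway were chosen for their known roles, also with earlier results of these data known. Of these, 35 had a gene region and 9 were hit in at least 5 tumours. By the Fisher exact test 0 of the 9 passed the adjusted threshold and 0 had an unadjusted p under 0.05. Those of the 9 genes hit in 9 or fewer tumours could not pass that threshold however their hits were split. With labels permuted over mice 0 of the 9 passed, against 0.156% of all genes tested. An unadjusted p under 0.05 in that permutation was found for 4 of the 9, against 5.79% of all genes tested, and their directions differ: Tgfbr3 and Bmpr1b had the higher share in resistant tumours, and Ltbp1 and Bmp5 the lower. Tab2, an adaptor of the TAK1 kinase that TGF-beta and BMP receptors also activate, was hit in 9 resistant and 15 untreated tumours and lies on the donor chromosome, 10, as does Usp15, a deubiquitinase of receptor SMADs (3 resistant and 8 untreated tumours). Tgfbr3, the co-receptor betaglycan, was hit in 7 resistant tumours (13.7%), against 4 untreated tumours (4.26%, Fisher exact p = 0.0516, adjusted p = 0.99, permutation over mice p = 0.042). Ltbp1, which stores latent TGF-beta in the matrix, was hit in 1 resistant tumour and 9 untreated tumours (Fisher exact p = 0.0993, permutation over mice p = 0.0344), and Nedd4l, a ubiquitin ligase of SMADs, in 5 resistant and 4 untreated tumours. Named after their values were seen, the type I receptor Acvr1 and the ligand Bmp5 were each hit in 0 resistant and 7 untreated tumours (Fisher exact p = 0.0522, adjusted p = 0.99, permutation over mice p = 0.0701 for Acvr1 and 0.0368 for Bmp5). Bmpr1b, a type I BMP receptor, was likewise named afterwards and was hit in 5 resistant and 2 untreated tumours (Fisher exact p = 0.0967, permutation over mice p = 0.0184).

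Genes outside chromosome 10 and on other chromosomes were ranked by how much their hit tumours overlapped those of a gene of the 10, as the Jaccard index: the tumours with both genes hit as a fraction of those with either, over all tumours. The most alike for Tgfbr2 were Vps54 (0.357) and Grm7 (0.316). For Acvr2a they were Qk and Wdfy3, with Armc9 equal to them (0.333 each). Smad3, Bmpr1a and Bmpr2 tied for the next rank, at 9 tumours, and the most alike were Strbp (0.294) for Smad3, Usp47 (0.364) for Bmpr1a and Chd2 (0.294) for Bmpr2. Tumours with many sites are hit in many genes at once, so these values share the number of sites per tumour.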

How the data were processed

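Transposon insertions were mapped in genomic DNA by ligating a splinkerette adaptor to sheared fragments, amplifying those with the 5′ transposon arm and sequencing 4 library pools as 100 bp pairs on an Illumina instrument, per the labels' protocols. Positions are on mm10, per the submitters' processing notes. The aligner and site caller are not given in the sources used here. Although ATAC-seq stands in the series title, the protocols describe insertion mapping. The deposited site table gives an unscaled read count per site and library and 2 further whole numbers, which the file headers do not define. The authors' region table gives insertions, the percent of tumours hit, and a −log10 score whose method is not given in the sources used here; both were copied, not tested. Without molecular identifiers PCR reads are no measure of independent molecules, and intervals cover the counting of tumours only.

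Sites were kept at 10 or more reads in the library with most reads at that position and strand (12 ties dropped, 0 in the 10 genes). Genes hit in at least 5 tumours entered a two-sided Fisher exact test and a permutation of labels over mice (100000 resamples), each with Benjamini-Hochberg adjustment and a threshold of 0.05. Orientation was tested by exact binomial tests within a group and Fisher exact tests between groups, at 5 or more sites. Unadjusted p-values are given for genes below these limits. On simulated data with 200 of 2558 genes raised in resistant tumours, the Fisher test recovered 58.5% at 20 added percentage points and 100.0% at 40. The simulated tumours were independent and had 1 hit rate per gene, without mice or differing numbers of sites. The largest difference among the 10 genes was 5.55 percentage points (Smad3), so the simulation does not cover differences of their size. Strands came from RefSeq (GRCm38.p6) for 7 genes; for the 3 on chromosome 18 they were inferred from the extended end of the region, a rule equal to RefSeq in 91.4% of 9754 genes. Exons and introns were not assigned. Mice were read from the titles, where 1 resistant title has a digit more than the others in its mouse number, which was read as the start of the gland name. In every promoter-window site at TTAA (946) the listed bases equalled RefSeq.

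The members and lists were chosen with earlier results of these data known. The text describes all members, the 5 genes of the pathway list hit in most tumours and any with an unadjusted Fisher p under 0.05, up to 3 sites with most reads per member, and the 2 most alike genes for the members hit in most tumours; the remaining sites are given to show every value. Alternatives covered read minimums, site ranks, shared positions, title forms, left-out libraries, strata of site number and mice as units. Python 3.11.15, numpy 2.4.6, scipy 1.17.1, pandas 2.3.3 and matplotlib 3.10.9 were used.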

Additional observations from a re-analysis of the deposited data

How the results depend on the processing

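Under 19 alternatives, 3 of them added after seeing the data (the undefined number of at least 2, untreated tumour 79 left out, and resistant tumours 11 and 32 left out), 190 values for a gene were computed, and 0 of those with enough tumours for the test passed the adjusted threshold (lowest adjusted p = 0.83). The direction reversed in 26 and did not in 164. The 164 overstate stability, because several alternatives left the hits of these genes unchanged. The strata of site number, the other limits on tumours hit and dropping positions of most libraries gave the main differences again. Leaving out untreated tumour 79 or the library with suffix R2, neither hit in these genes, changed only the number of untreated tumours. Differences of exactly 0, as for Smad7 at 100 or more reads, also counted as not reversed. Values below are resistant minus untreated shares in percentage points. At least 30 reads gave Tgfbr1 1.96. At least 100 reads gave Smad2 -2.13, Bmpr1a -1.06 and Bmpr2 1.96. The 100 sites with most reads gave Tgfbr2 -1.23, Smad2 -2.13, Smad3 -1.06, Bmpr1a -1.06 and Bmpr2 1.96, and the top 300 gave Tgfbr2 -2.29, Smad2 -0.167, Smad3 -1.23, Bmpr2 0.73 and Acvr2a -0.167. At least 0.05% of the reads of a library gave Tgfbr1 0.897, Tgfbr2 -2.29, Smad4 0.897 and Bmpr1a -1.23. Of the numbers the headers do not define, the second column at 2 or more gave Bmpr2 0.229, and the last one gave Tgfbr2 -0.167 and Bmpr1a -1.06. Without resistant tumours 11 and 32, Acvr1b was -0.0868. With mice as the unit, Tgfbr2 was -5.74, Smad3 -1.39, Bmpr1a -5.39 and Acvr2a -1.74; untreated mice gave more tumours each. The cause of each reversal was not tested.

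Over all genes, keeping shared positions in every tumour raised the genes passing the Fisher test to 14 (0 otherwise), the orientation calls within a group to 15 and between groups to 2. Orientation calls within a group numbered 1 at 5 or more reads. The permutation over mice called 4 genes, none of the 10, and 0 on mean shares per mouse. The Acvr2a orientation difference kept its sign under all 6 of its alternatives (unadjusted p from 0.00794 to 0.103, adjusted p at least 0.868). Dropping positions of most libraries, or counting nearby sites of a tumour once, left the Acvr2a counts unchanged. No paired analysis was possible because no mouse named in the titles gave tumours to both groups. Depth limits what can be seen: 50 of the 124 sites of the 10 genes with reads had under 10.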
